A study of Mus musculus with 113 samples.

Results

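Radial glia and the neuroepithelial cells they arise from are the dividing progenitors of the embryonic brain. The 10 genes described here encode the working parts of these cells and not their transcription factors: Nes (the intermediate filament nestin), Fabp7 (brain lipid binding protein), Dbi (an acyl-CoA binding protein), Slc1a3 (the glutamate transporter GLAST), Prom1 (the apical membrane protein prominin-1), Gpm6a (a membrane glycoprotein also abundant in neurons), Ptprz1 (a receptor tyrosine phosphatase), Tnc (the matrix protein tenascin-C), and Msi1 and Msi2 (the RNA binding Musashi proteins). The genes were listed by symbol for their known roles, at a time when earlier results of these data were known. They were 10 of the 23739 gene symbols in the 4 expression tables; the cell population and E14 tables held all 10, and the single-cell table held 7. Ptprz1, Tnc and Gpm6a were not analysed in the cells.

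In the developing cortex, radial glia stretch a long fibre from the ventricle to the brain surface, divide at the ventricle and guide newborn neurons. Nestin filaments support the fibre, prominin-1 marks the apical membrane, and GLAST and brain lipid binding protein appear as neuroepithelial cells turn into radial glia. Musashi proteins bind messenger RNAs and hold cells in the progenitor state, and PTPRZ1 binds the growth factors pleiotrophin (Ptn) and midkine (Mdk) as well as tenascins.

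The study followed mouse embryonic stem (ES) cells into the neural lineage by RNA sequencing. R1 ES cells, without a genetic change, were induced either as SFEB (floating aggregates in serum-free medium) or as an adherent monoculture (a monolayer in N2B27 medium), and cells were dissociated and replated on the sixth day in both protocols. Each library of a cell population was the sole library of its time point: a first SFEB series of 14 libraries from 0 to 142 h, a parallel SFEB series of 8 libraries from 0 to 216 h, and 15 adherent libraries from 0 to 216 h. At the 8 time points of the parallel series, 8 single cells each were picked by hand, 64 in all. Wild-type E14 ES cells (E14 WT) and E14 cells in which CRISPR-Cas9 had removed the beginning of the Fyn gene (E14 Fyn KO, a single clone) were sequenced on day 0 and day 4 of induction, with 3 libraries in each of the 4 groups. The labels do not say by which protocol the E14 cells were induced. Fyn is a kinase of the Src family. Nothing in the labels says whether replicate libraries came from separate cultures, so the p-values measure the spread between libraries, which may be technical. In whole populations, fewer cells of a type and less RNA per cell cannot be told apart.

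The genes lie on 9 chromosomes, given here in the mouse build mm9 that the R1 tables used. Nes spans chr3:87775000-87784373 on the plus strand and Fabp7 spans chr10:57504687-57508256 on the plus strand. Slc1a3 spans chr15:8584124-8660764 on the minus strand and Prom1 spans chr5:44384864-44493271 on the minus strand. Msi1 lies on the same chromosome as Prom1, at chr5:115879608-115905707 on the plus strand, and Msi2 at chr11:88152884-88579827 on the minus strand. Ptprz1 spans chr6:22825502-23002916 and Gpm6a spans chr8:56040081-56146231, both on the plus strand. Tnc spans chr4:63620819-63681760 and Dbi spans chr1:122009857-122017655, both on the minus strand. All 10 are annotated as protein coding, and the values are sums over a whole gene, not over an exon or isoform.

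Promoter sequence is shown for the member with the steepest rise (Fabp7), for another steep riser (Gpm6a) and for the member that fell (Tnc). Each line holds the 250 bases before an annotated start from RefSeq, build GRCm38.p6, read 5′ to 3′ on the strand of the gene. Fabp7 lies at chr10:57784673-57784922 (plus strand), Gpm6a at chr8:54779184-54779433 (plus strand, the first of its 2 starts) and Tnc at chr4:64047016-64047265 (minus strand, the first of its 2 starts). Capitals mark the motifs searched on both strands, which were TGGGAA (RBPJ), ATGCAAAT (the POU octamer), ACAATG (Sox), CCAAT and TATAAA.
Fabp7: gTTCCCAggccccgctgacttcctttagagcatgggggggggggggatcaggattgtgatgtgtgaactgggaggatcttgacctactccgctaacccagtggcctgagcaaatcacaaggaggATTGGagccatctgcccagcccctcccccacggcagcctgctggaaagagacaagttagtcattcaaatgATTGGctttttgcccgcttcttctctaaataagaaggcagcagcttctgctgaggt
Gpm6a: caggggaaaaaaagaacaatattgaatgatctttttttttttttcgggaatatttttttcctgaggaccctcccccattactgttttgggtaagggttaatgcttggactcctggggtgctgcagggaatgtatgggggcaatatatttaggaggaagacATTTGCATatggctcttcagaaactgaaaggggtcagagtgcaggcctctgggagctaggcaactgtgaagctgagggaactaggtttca
Tnc: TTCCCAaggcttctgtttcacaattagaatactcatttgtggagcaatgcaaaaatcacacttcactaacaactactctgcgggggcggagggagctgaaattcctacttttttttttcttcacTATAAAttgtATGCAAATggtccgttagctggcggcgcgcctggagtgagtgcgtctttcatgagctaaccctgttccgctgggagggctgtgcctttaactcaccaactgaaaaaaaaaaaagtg

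Counted from the start, the Fabp7 window held TGGGAA on the opposite strand at -249 and CCAAT on the opposite strand at -126 and -56. The Gpm6a window held the octamer on the opposite strand at -90. The Tnc window held TGGGAA on the opposite strand at -250, TATAAA at -126 and the octamer at -116. Of the 10 genes, 9 had an entry, with 15 windows among them, and Msi1 had none. CCAAT was in 7 of the 15 windows, TGGGAA in 4, TATAAA in 4, the octamer in 3 (of Tnc and Gpm6a) and ACAATG in 0. Of all 32851 promoter windows of the same length, 33.8% held CCAAT, 21.6% TGGGAA, 12.4% TATAAA, 1.60% the octamer and 10.7% ACAATG. Windows of one gene overlap for several members, and a match of letters is not a binding site.

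Expression of the population libraries is given as FPKM, fragments scaled to transcript length and to the number mapped in the library, so that levels of different genes can be compared. The submitters had adjusted the SFEB table with ComBat, a method for differences between batches, which left 1256 values below 0. Of these, 3 were for Fabp7 and 3 for Gpm6a, in the parallel series at 0, 9 and 38 h. The SFEB and adherent tables were normalized apart, so no test was made between them. The read depth behind the values is unknown. Transcripts that mark fibroblasts, the cells on which ES cells are usually grown and which 1 feeder-free passage was meant to remove, were high at the start of the R1 courses: the summed FPKM of 10 fibroblast markers was 1570 and 1591 in the 0 h libraries of the SFEB series and 1009 in the adherent one. No marker of the 10 was at 0 in any R1 library. The sum lay between 109 and 197 from 34 to 60 h in SFEB and lay between 110 and 305 from 20.5 h on in the adherent culture. Pluripotency markers fell in both cultures, with all 10 of 10 called lower.

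Along the R1 time courses, 9 of the 10 genes rose and Tnc fell in SFEB, and 8 rose and Tnc fell in the adherent monoculture, where Dbi did not pass the test. The question was how the level followed time of induction, and it was tested with limma as a slope of log2(FPKM + 1) per 24 h, called at a Benjamini-Hochberg adjusted p under 0.05 over all genes of the table. Among all 12301 SFEB genes tested, 34.7% were called higher and 26.9% lower with time. Among all 12355 adherent genes, 35.2% were called higher and 23.7% lower. The median slope of the 10 genes was 0.43 in SFEB and 0.36 in the adherent culture, beside 0.011 and 0.021 over all genes tested. Markers of other cell types moved over the same hours: of the neuronal markers, 7 of 8 tested were called higher in SFEB and 8 of 9 in the adherent culture, and of the mesoderm and endoderm markers 3 of 3 and 1 of 1. The summed FPKM of the 8 mesoderm and endoderm markers in the SFEB table went from 4.56 at 0 h to 55.9 at 106 h and 27.4 at 216 h in the parallel series, and was between 8.31 and 31.6 in the first series. Of 2 astrocyte markers tested, 0 were called in SFEB and 1 was higher in the adherent culture. The part of these cells in the slopes of the members was not tested. With 1 library per time point, the error of a slope is the scatter of the libraries round the line.

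**Figure D1:**
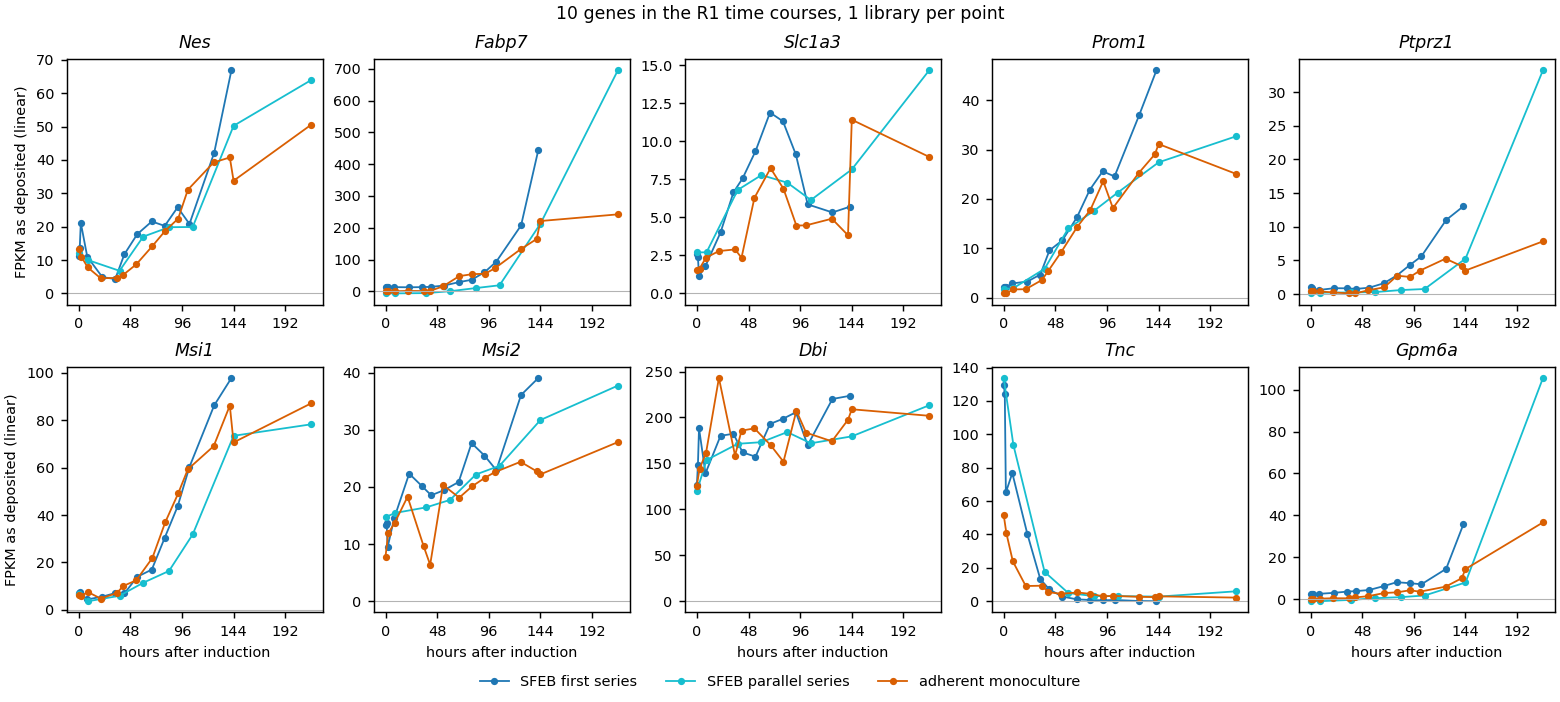
FPKM as deposited (linear axes, a scale for each gene) against hours after induction for the 10 genes, with 1 library per point in the first SFEB series, the parallel SFEB series and the adherent monoculture. Fabp7 climbed to 695 at 216 h in SFEB, Nes dipped before it rose, Slc1a3 was at 11.9 at 68 h and 5.70 at 142 h in the first SFEB series, and Tnc fell from the start.

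Apart from Tnc, which fell, the lipid carriers held the steepest and the flattest slopes of the members. Fabp7, which carries long-chain fatty acids in radial glia, was at 13.2 FPKM at 0 h in the first SFEB series, at 18.3 at 54.5 h, at 93.5 at 103 h and at 444 at 142 h. In the parallel series, where the first 3 values were below 0, Fabp7 reached 0.442 at 60 h, 19.1 at 106 h, 213 at 144 h and 695 at 216 h. In the adherent culture it was at 0.221 at 0 h, 1.49 at 41.5 h, 15.8 at 53.5 h, 72.3 at 101.5 h and 242 at 216 h. The first 7 values of the first SFEB series lay between 12.8 and 14.4 and those of the parallel series up to 38 h between -6.42 and -5.43, so the early level of Fabp7 in the SFEB table differed by series after the adjustment. In all 3 courses the libraries from 53.5 h on stood above every earlier library of the same course. The slope was 1.01 ± 0.080 (SE, 22 libraries, adjusted p = 1.21e-09) in SFEB and 1.08 ± 0.11 (SE, 15 libraries, adjusted p = 1.07e-06) in the adherent culture, the steepest of the 10 in both. Within the first series alone it was 0.77 ± 0.074 and within the parallel series 1.20 ± 0.11. Dbi, which binds acyl-CoA esters and is also a ligand of GABA-A receptors, was already at 127 FPKM at 0 h in the first SFEB series and ended at 223, and it went from 120 to 213 in the parallel series. Its slope was 0.077 ± 0.015 in SFEB (adjusted p = 0.000158), and 0.045 ± 0.022 in the adherent culture (adjusted p = 0.0887), where its highest value, 243, came at 20.5 h. With the rank of time in place of hours, the adherent slope of Dbi passed the test (adjusted p = 0.0495).

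The cytoskeletal gene Nes fell before it rose. In the first SFEB series it was at 11.3 FPKM at 0 h, 21.2 at 2 h, 4.88 at 22 h, 4.31 at 34 h, 21.6 at 68 h and 66.9 at 142 h. The parallel series ran from 12.1 at 0 h through 6.77 at 38 h to 63.9 at 216 h. The adherent culture ran from 13.3 at 0 h through 4.53 at 20.5 h to 50.5 at 216 h. The lowest library thus came between 20.5 and 38 h in each course, and the last libraries stood highest in both SFEB series and in the adherent culture. Fibroblasts also express nestin, and the fibroblast marker sum fell over the same first hours, from 1570 to 186 at 34 h in the first series; its part in the early level of Nes was not tested. The slope of Nes was 0.34 ± 0.052 in SFEB (adjusted p = 7.86e-06) and 0.36 ± 0.056 in the adherent culture (adjusted p = 4.51e-05). With the libraries up to 9 h left out, an alternative chosen after seeing the data, it was 0.49 ± 0.059 and 0.47 ± 0.058.

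Among the membrane proteins, Prom1 rose early and Ptprz1 and Gpm6a late. Prom1, of the apical membrane, was at 2.09 FPKM at 0 h in the first SFEB series, 9.56 at 42.5 h, 21.9 at 80 h and 46.1 at 142 h. The parallel series went from 1.73 to 32.7 at 216 h, and the adherent culture from 0.881 to 31.1 at 144 h and 25.1 at 216 h. Prom1 crossed the midpoint of its range at 87.1, 81.3 and 74.2 h in the first, parallel and adherent courses. Ptprz1 was at most 1.05 FPKM up to 54.5 h in the first SFEB series and reached 13.04 at 142 h. In the parallel series it was at 5.27 at 144 h and 33.2 at 216 h, and in the adherent culture at 3.51 and 7.84 at those times. Gpm6a was at 14.4 FPKM at 126 h and 35.6 at 142 h in the first series. It was at 7.90 at 144 h and 106 at 216 h in the parallel series, and at 14.3 and 36.6 in the adherent culture. Most of the range of Ptprz1 and Gpm6a in the parallel series lay between the last 2 libraries, with midpoints at 173 and 177 h. In the first series, which ended at 142 h, their midpoints were at 108 and 129 h. In the adherent culture they were at 152 and 157 h. A midpoint depends on where a course ends. The slopes in SFEB were 0.55 ± 0.050 for Prom1, 0.52 ± 0.046 for Ptprz1 and 0.61 ± 0.055 for Gpm6a, with adjusted p between 5.45e-09 and 6.70e-09. The adherent slopes were 0.53 ± 0.071, 0.36 ± 0.040 and 0.59 ± 0.026. Gpm6a is also a neuronal gene, and the summed FPKM of the 9 neuronal markers in the R1 tables rose over the same hours, from 153 at 0 h to 411 at 144 h and 1175 at 216 h in the parallel series; its part in the late rise of Gpm6a was not tested.

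Slc1a3 followed a course of its own, with a first rise that did not last. GLAST, its product, takes up glutamate into radial glia and astrocytes. In the first SFEB series it rose from 2.59 FPKM at 0 h to 11.9 at 68 h, and then went down to 5.85 at 103 h, 5.32 at 126 h and 5.70 at 142 h. In the adherent culture it rose from 1.55 to 8.23 at 68.5 h, was at 3.82 at 140.5 h and at 11.4 at 144 h, and ended at 8.98. In the parallel series it was at 7.78 at 60 h, 6.14 at 106 h and 14.7 at 216 h. A value between 60 and 68.5 h higher than that between 101.5 and 106 h was thus present in each course, but each point is 1 library and the dip has no replicate check. The adherent libraries of 140.5 and 144 h, differed by more than the peak and the dip: the fibroblast marker sum was also higher at 144 h (305 against 134 at 140.5 h), as was the sum of the 7 mesoderm and endoderm markers in the table (70.1 against 11.6), and the part of this library in the second rise was not tested. The slope of Slc1a3 was 0.22 ± 0.050 in SFEB (adjusted p = 0.000607) and 0.21 ± 0.046 in the adherent culture (adjusted p = 0.00112). Without the libraries up to 9 h the SFEB slope was 0.070 ± 0.050 and did not pass the test (adjusted p = 0.244).

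Both genes for RNA binding proteins rose, by unequal amounts. The midpoints of Msi1 and Msi2 lay at 96.9 and 105 h in the first SFEB series and at 114 and 118 h in the parallel series. In the adherent culture they lay at 89.4 and 50.7 h. The differences in hours were not tested. Msi1 was at 7.20 FPKM at 0 h in the first SFEB series, 13.97 at 54.5 h, 43.6 at 92 h and 97.7 at 142 h. It reached 78.2 in the parallel series and 87.1 in the adherent culture, 12.02 and 13.9 times its 0 h value. Msi2 was higher than Msi1 at the start, at 13.4, 14.7 and 7.79 FPKM, and lower at the end, at 39.0, 37.7 and 27.8 FPKM. The order of the pair thus turned over in each of the 3 courses. The slopes were 0.59 ± 0.047 for Msi1 and 0.19 ± 0.020 for Msi2 in SFEB, and 0.54 ± 0.056 and 0.17 ± 0.040 in the adherent culture. Msi2 in the adherent culture varied most early, with 18.3 at 20.5 h, 6.37 at 41.5 h and 20.3 at 53.5 h, and Msi1 was at its lowest, 4.79, at 20.5 h. At 22 h in the first SFEB series Msi2 was at 22.3 and Msi1 at 5.597.

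Tnc, the extracellular matrix member, went the other way. It was at 130 FPKM at 0 h in the first SFEB series, 65.2 at 2 h, 40.2 at 22 h, 7.06 at 42.5 h and 0.0523 at 142 h. The parallel series fell from 134 to 2.79 at 144 h and held 5.95 at 216 h, and the adherent culture fell from 51.6 to 2.19 at 216 h. The slope was -0.84 ± 0.13 in SFEB (adjusted p = 8.60e-06) and -0.41 ± 0.074 in the adherent culture (adjusted p = 0.000162). Within the first series alone the slope was -1.27 ± 0.12, within the parallel series -0.49 ± 0.16, and without the libraries up to 9 h -0.45 ± 0.14, so its size depended on which libraries entered. Tenascin-C is also made by fibroblasts, and all 10 fibroblast markers were called lower with time in SFEB and 6 of the 9 tested in the adherent culture. Over all tested genes that are no members, the one nearest to Tnc over the 22 SFEB libraries was Col6a3, a collagen gene (r = 0.99, and 0.89 over the 15 adherent libraries). Tnc was at most 0.148 FPKM in all 12 E14 libraries, where between 1 and 5 of the 10 fibroblast markers were at 0. The fibroblast marker sum of 39.7 to 309 FPKM in E14 rested on Col5a1, Thy1 and Fn1, the 3 markers that passed the filter there. The other 7 summed to between 0.0651 and 7.29 FPKM in the E14 libraries. In the R1 SFEB libraries of 34 to 60 h, with Tnc at 2.79 to 17.6 FPKM, the same 7 summed to between 25.4 and 66.4. In the first series they summed to 24.4 at 126 h and 18.3 at 142 h, with Tnc at 0.134 and 0.0523 FPKM. In the parallel series they summed to 119 at 216 h, with Tnc at 5.95 FPKM. The E14 and R1 tables were normalized apart. The part of fibroblast transcripts in the fall of Tnc was not tested. In these libraries Tnc did not behave like the other 9 genes of its group.

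**Figure D2:**
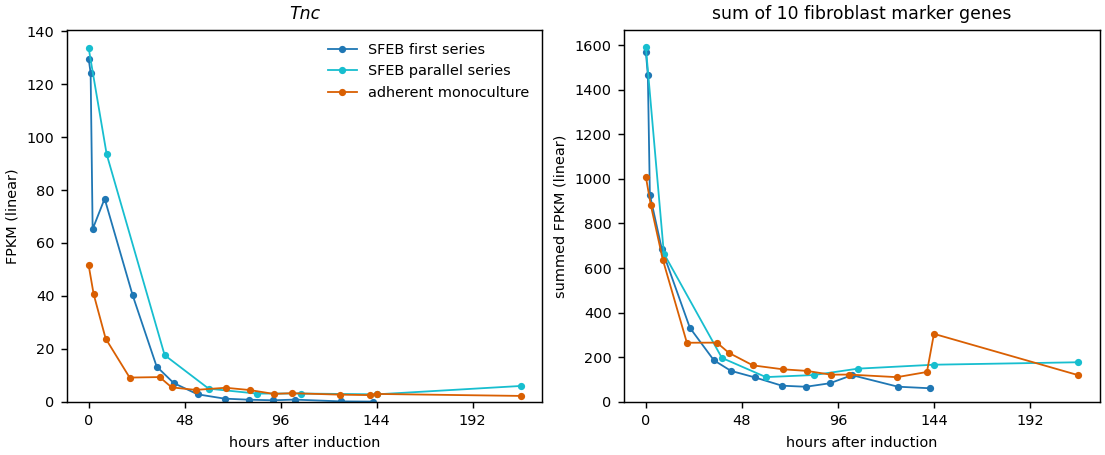
Left, FPKM of Tnc against hours after induction; right, summed FPKM of 10 fibroblast marker genes in the same R1 libraries (linear axes, 1 library per point). Both fell most by 60 h, Tnc from 130, 134 and 51.6 FPKM and the marker sum from 1570, 1591 and 1009.

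**Figure D3:**
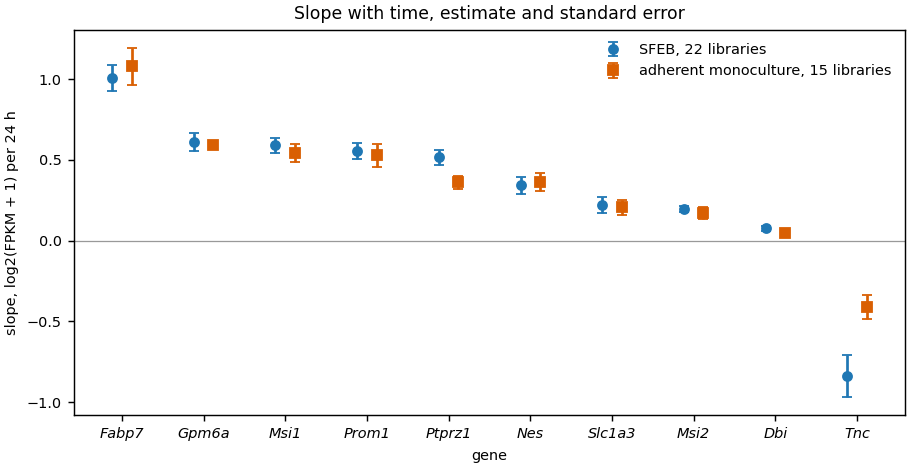
Slope of log2(FPKM + 1) per 24 h with its standard error for the 10 genes, from 22 SFEB libraries (circles) and 15 adherent libraries (squares). Fabp7 had the steepest rise in both, Dbi lay close to 0, and Tnc was below 0.

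In the last libraries, at 216 h, Fabp7 and Dbi held the highest FPKM in both protocols, at 695 and 213 in SFEB and at 242 and 202 in the adherent culture. SFEB then had Gpm6a at 106, Msi1 at 78.2, Nes at 63.9, Msi2 at 37.7, Ptprz1 at 33.2, Prom1 at 32.7, Slc1a3 at 14.7 and Tnc at 5.95. The adherent order was Msi1, Nes, Gpm6a, Msi2, Prom1, Slc1a3, Ptprz1 and Tnc, from 87.1 down to 2.19. Each order rests on 1 library, so neighbours in it cannot be told apart.

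For the other members, the gene that is no member and whose log2(FPKM + 1) followed most closely over the 22 SFEB libraries was Clip1 for Nes (r = 0.94), Nefm for Fabp7 (r = 0.98), Cacna1b for Slc1a3 (r = 0.95), Plch1 for Prom1 (r = 0.99) and Astn1 for Ptprz1 (r = 0.98). It was Whsc1 for Msi1 (r = 0.99), Ralgapa1 for Msi2 (r = 0.97), Rtn1 for Gpm6a (r = 0.98) and Mrpl41 for Dbi (r = 0.87). Over the 15 adherent libraries the same pairs had r between 0.76 and 0.97, except Dbi with Mrpl41, which had r = -0.017. The libraries share their place in time, so these values describe likeness of course and are given without a test. Among the members, Nes and Ptprz1 had r = 0.80 in SFEB and 0.96 in the adherent culture, while Nes and Slc1a3 had 0.37 and 0.57.

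The other genes of progenitors and of the pathways of the members moved unevenly. Of 22 other progenitor genes, 19 were tested in SFEB, with 12 called higher and 1 lower, and 20 in the adherent culture, with 16 higher and 1 lower. Pax6, a transcription factor of cortical radial glia, had a slope of 0.43 ± 0.058 in SFEB and 0.21 ± 0.062 in the adherent culture, and Sox3, a factor of early neural cells, 0.53 ± 0.065 and 0.62 ± 0.12. Mfge8 was lower with time in SFEB (-0.22 ± 0.075) and did not pass the test in the adherent culture (-0.092 ± 0.073). Of 14 ligands, receptors and partners, 12 were tested in each protocol, with 5 higher and 4 lower in SFEB and 6 higher and 1 lower in the adherent culture. Ptn and Mdk, the growth factors that PTPRZ1 binds, had slopes of 0.37 ± 0.13 and 0.23 ± 0.065 in SFEB and of 0.56 ± 0.12 and 0.20 ± 0.047 in the adherent culture. Of 16 paralogs of the members, 12 were tested in each, with 5 higher and 3 lower in SFEB and 6 higher and 1 lower in the adherent culture. Fabp5, the epidermal fatty acid binding protein, rose with a slope of 0.44 ± 0.049 in SFEB, less than that of Fabp7 by estimate, and with 0.36 ± 0.042 in the adherent culture; the differences were not tested.

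In single SFEB cells, values are log10(RPKM + 1) after quantile normalization by the submitters, and 7 of the 10 genes were held. The paper states that genes detected in too few single cells were discarded. Fabp7 and Nes rose with time, and the other 5 did not pass the test. The slope was fitted with limma to the means of the 8 cells of a time point, since cells of a time point share a culture, and gave 1.67% of 11449 genes called higher and 1.07% lower. Fabp7 was below 1 RPKM in all but 1 of 8 cells at 0 h, in all 8 at 38 h and in all 8 at 60 h. It reached 1 RPKM in 4 of 8 cells at 106 h (exact binomial 95% interval 15.7% to 84.3%) and in 7 of 8 at 144 h and at 216 h (47.3% to 99.7%). At 216 h its 8 values ran from 0.275 through a median of 2.42 to 2.98, so the lowest cell overlapped those of 0 h (0 to 0.374) and the other 7 stood above them. The slope was 0.23 ± 0.034 per 24 h on the log10 scale (SE, 8 means, adjusted p = 0.00035). Nes ran from 0 through a median of 0.041 to 0.759 at 0 h, from 0.549 through 1.47 to 2.05 at 144 h, and from 0.0689 through 0.964 to 1.88 at 216 h. All 8 cells reached 1 RPKM at 144 h (exact interval 63.1% to 100%), beside 3 of 8 at 0 h (8.52% to 75.5%). The slope of Nes was 0.14 ± 0.034 (adjusted p = 0.0254). Both calls were lost without the 216 h cells (adjusted p = 0.238 for each), when 0 genes were called, and that of Nes also when RPKM was averaged before the log (adjusted p = 0.128). These intervals cover counting of cells only.

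**Figure D4:**
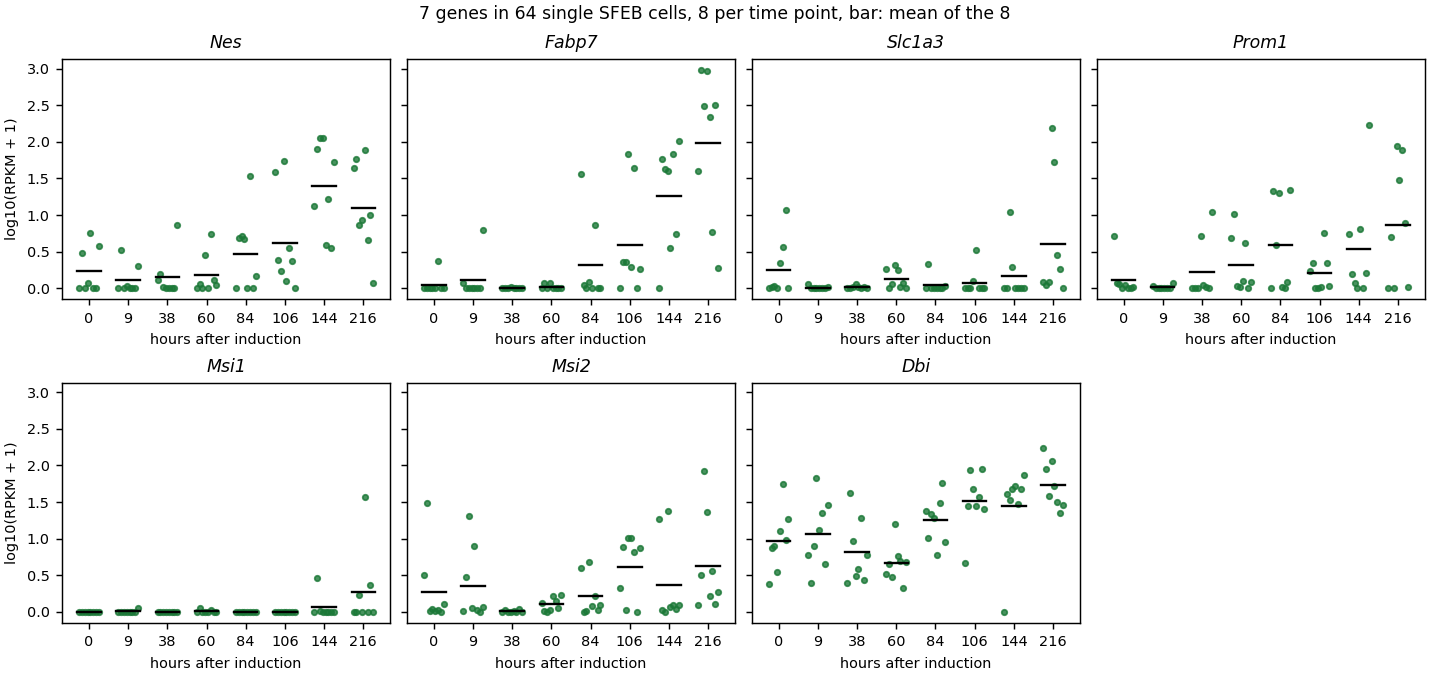
log10(RPKM + 1) of 7 genes in 64 single SFEB cells, 8 at each of 8 time points (dots, 1 per cell; bar, mean of the 8; shared linear axis). Fabp7 and Nes are near 0 in most cells up to 60 h and at 1 RPKM or more in 7 or 8 of 8 cells at 144 and 216 h, while Dbi is present from the start and Msi1 is at 0 in most cells.

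Dbi was detected in 63 of the 64 cells and had the highest median of the 7 genes at every time point up to 144 h. Its 8 cells ran from 0.380 to 1.74 at 0 h and from 0.319 to 1.20 at 60 h. At 216 h they ran from 1.35 to 2.25. The cells of 216 h stood above those of 60 h, the time point with the lowest maximum, and overlapped those of every other time point. The slope of Dbi was 0.099 ± 0.035 (adjusted p = 0.121). Prom1 had a slope of 0.083 ± 0.028 (adjusted p = 0.107) and was split at 216 h, with 3 cells at or under 0.0171 and 5 from 0.696 to 1.95. Slc1a3 reached 1 RPKM in 3 of 8 cells at 0 h, in 1 of 8 from 60 to 144 h and in 3 of 8 at 216 h, with 2.20 in its highest cell. Msi1 was at or above 1 RPKM in 3 of the 64 cells, 1 at 144 h and 2 at 216 h, although it was at 73.4 and 78.2 FPKM in the parallel populations of those hours; the 2 tables were normalized apart and the reason was not tested. Msi2 was at or above 1 RPKM in 6 of 8 cells at 106 h and in 0 of 8 at 38 and 60 h.

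The members varied among cells of one time point. After the mean of each time point was taken out, Nes and Fabp7 had the highest correlation of all pairs over the 64 cells (r = 0.44), followed by Slc1a3 with Msi1 (r = 0.35) and Fabp7 with Dbi (r = 0.33). Over the 32 cells from 84 h on, the values were 0.49, 0.38 and 0.40, and Slc1a3 with Prom1 had 0.37. Over the 64 cells the other pairs lay between -0.23 and 0.28, and Nes with Prom1 had 0.067. Msi1 was above 0 in 11 of the 64 cells, and its highest cell (cell 7 of 216 h, 1.56) was at 1.72 for Slc1a3. Cell 2 of 144 h was at 0 for both Fabp7 and Dbi. No correlation was computed with a cell left out, so the part of single cells in these values was not tested. The cells of a time point share a culture, and cells differed in the number of genes detected, from 5648 to 10437. Cell 16 of 216 h stood apart: its 10 pluripotency markers summed to 1991 RPKM, beside 8.56 to 92.8 in the other 7 cells of that time, and it was at 0.275 for Fabp7, 0.0689 for Nes and 0.0171 for Prom1. It held the lowest Fabp7 and the lowest Nes of the 216 h cells. Without it the slopes were 0.25 ± 0.035 for Fabp7 (adjusted p = 0.000182) and 0.15 ± 0.034 for Nes (adjusted p = 0.0131), and the calls of the 7 genes did not change. Of the other progenitor genes, 6 of the 19 held by the single-cell data were called higher and 0 lower. No partner and no paralog of 11 each passed the test. Of the markers of other cells, 7 of 10 pluripotency markers were called lower, 1 of 4 mesoderm and endoderm markers was called higher, and 0 of 7 neuronal, 0 of 8 fibroblast and 0 of 2 astrocyte markers were called.

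The E14 libraries addressed the role of Fyn in neural differentiation, and the targeted gene was examined first. Fyn was at 3.21, 2.74 and 4.00 FPKM in E14 WT on day 0 (replicates 1, 2 and 3) and at 9.44, 4.54 and 6.76 on day 4. In E14 Fyn KO it was at 0.598, 0.598 and 1.10 on day 0 and at 1.19, 1.13 and 1.58 on day 4. Every Fyn KO library was below every WT library, as the labels have it. The log2(FPKM + 1) difference on day 4 was -1.74 ± 0.24 (limma, adjusted p = 0.0193), and on day 0 it was -1.29 ± 0.24 (adjusted p = 0.0601). The day 4 call did not hold without WT replicate 1 or 3, or without any of the 3 Fyn KO libraries of day 4 (adjusted p from 0.0535 to 0.126). The day 0 difference passed in 2 of the 12 fits with 1 library left out (limma adjusted p from 0.0375 to 0.222 over the 12). It also passed with a pseudocount of 0.1 and with the replicate number as a block. Summed FPKM ran from 525639 to 909369, with small nucleolar RNAs such as Snord22 reaching 255503 in WT day 4 replicate 1. That library also had the lowest sum of 10 pluripotency markers, 887 FPKM beside 1988 to 2520 in the other day 4 libraries.

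Of the 10 genes, 6 passed the filter of at least 1 FPKM in at least 3 of the 12 libraries; Fabp7, Ptprz1, Gpm6a and Tnc did not. From day 0 to day 4 in E14 WT, Prom1, Slc1a3, Msi2, Dbi and Msi1 rose and Nes did not pass the test. Of all 12257 genes tested, 15.5% were called higher and 10.3% lower. In E14 Fyn KO, Prom1, Slc1a3 and Dbi rose, among 11.8% of all genes called higher and 7.56% lower. With quantile normalization the split of all calls shifted, from 1904 higher and 1262 lower to 1576 and 1532 in WT and from 1443 and 927 to 1226 and 1176 in Fyn KO, while the members called were the same in number. Groups of 3 libraries did not overlap, day 4 being higher, for 25.8% of the genes tested in WT and for 21.9% in Fyn KO. Of the 6 members that passed the filter this held for 5 in WT and 4 in Fyn KO. Of those that did not pass, it held for Fabp7 in WT and for Fabp7, Gpm6a and Ptprz1 in Fyn KO, beside 14.1% and 14.2% of the 6584 genes that were above 0 in some library and did not pass. Fabp7 and Gpm6a were listed at 0 in all 3 Fyn KO libraries of day 0.

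Among the 6 members that passed the filter, Prom1 and Slc1a3 rose most. Prom1 was at 0.857, 0.318 and 0.425 FPKM in WT on day 0 and at 16.6, 6.63 and 11.7 on day 4. In Fyn KO it was at 2.15, 1.31 and 0.599 on day 0 and at 12.4, 11.9 and 16.8 on day 4. Day 4 lay above day 0 without overlap in both genotypes, with log2 differences of 2.98 ± 0.32 in WT (SE, n = 3 per group, limma adjusted p = 0.000209) and 2.68 ± 0.32 in Fyn KO (limma adjusted p = 0.000456). Slc1a3 was at 0.730, 0.382 and 0.0775 FPKM in WT on day 0 and at 6.06, 9.20 and 11.1 on day 4. In Fyn KO it went from 0.709, 0.169 and 1.78 to 9.28, 9.82 and 13.5. Again the days did not overlap, and the differences were 2.80 ± 0.32 in WT (adjusted p = 0.000271) and 2.73 ± 0.32 in Fyn KO (adjusted p = 0.000448).

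Dbi was at 250, 262 and 231 FPKM in WT on day 0 and at 399, 340 and 316 on day 4. In Fyn KO it was at 285, 227 and 242 on day 0 and at 339, 354 and 393 on day 4. Its change of 0.50 ± 0.12 in WT (adjusted p = 0.0140) did not hold without WT day 0 replicate 3 (adjusted p = 0.0543) or WT day 4 replicate 1 (adjusted p = 0.0529). Its change of 0.53 ± 0.12 in Fyn KO (adjusted p = 0.0138) did not hold without day 0 replicate 2 (adjusted p = 0.0678) or day 4 replicate 3 (adjusted p = 0.0626). Dbi was the most abundant of the 10 genes in every E14 library.

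**Figure D5:**
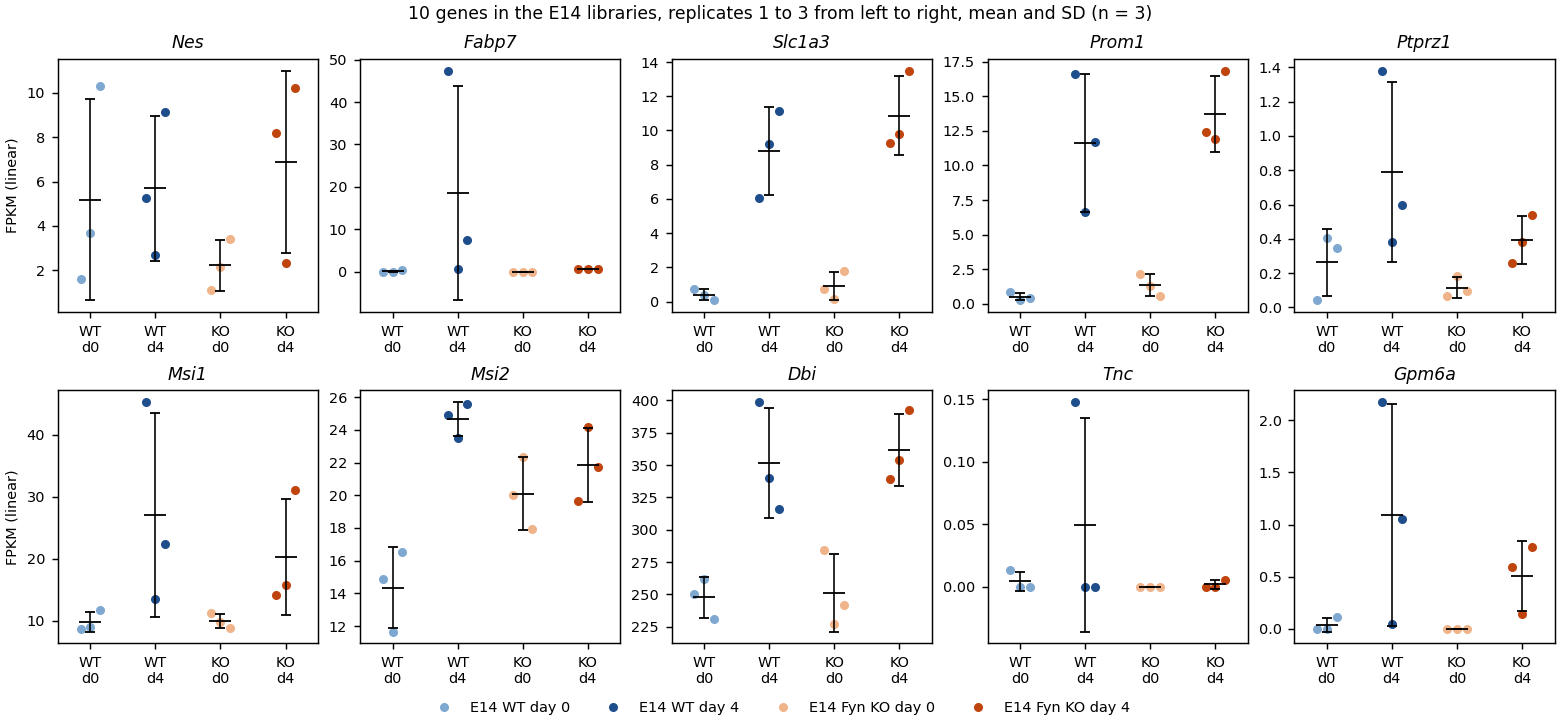
FPKM of the 10 genes in the 12 E14 libraries (linear axes, a scale for each gene, not all from 0), as dots for replicates 1 to 3 with the mean and SD of the 3. Prom1, Slc1a3 and Dbi are higher on day 4 in both genotypes, Msi2 differs by day in WT, and Fabp7 is far above the rest in WT day 4 replicate 1 with 47.4 FPKM.

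Of the Musashi genes, Msi1 was at 8.74, 9.06 and 11.7 FPKM in WT on day 0 and at 45.3, 13.4 and 22.3 on day 4, and it went from 11.2, 9.75 and 8.87 to 14.1, 15.7 and 31.0 in Fyn KO. The days did not overlap in either genotype, but the spread on day 4 was wide. The WT difference was 1.22 ± 0.37 (adjusted p = 0.0334), and without day 4 replicate 1 it was 0.77 ± 0.31 (adjusted p = 0.110); the call was also lost without any of the 3 WT day 0 libraries or WT day 4 replicate 3 (adjusted p from 0.0577 to 0.0975), and with no filter on low values (adjusted p = 0.0992). The Fyn KO difference of 0.88 ± 0.37 did not pass the test (adjusted p = 0.118). Msi2 was at 14.9, 11.6 and 16.5 FPKM in WT on day 0 and at 24.9, 23.5 and 25.6 on day 4, a difference of 0.75 ± 0.15 (adjusted p = 0.00467). In Fyn KO it was at 19.99, 22.4 and 17.95 on day 0 and at 19.6, 24.2 and 21.8 on day 4, and the days overlapped (0.12 ± 0.15, adjusted p = 0.620). The Fyn KO libraries of day 0 were above those of WT without overlap, as for 10.5% of all genes, and their difference of 0.47 ± 0.15 did not pass the test (adjusted p = 0.185). The change of Msi2 from day 0 to day 4 was smaller in Fyn KO by -0.64 ± 0.21 on the log2 scale and did not pass adjustment over all genes (limma adjusted p = 0.997).

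Nes was at 1.61, 3.66 and 10.3 FPKM in WT on day 0 and at 5.28, 2.68 and 9.14 on day 4. In Fyn KO it was at 1.13, 2.14 and 3.42 on day 0 and at 8.19, 2.31 and 10.2 on day 4. The days overlapped in both genotypes, with differences of 0.26 ± 0.58 (adjusted p = 0.786) and 1.18 ± 0.58 (adjusted p = 0.176). Replicate 3 held the highest Nes of each of the 4 groups.

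The 4 genes below the filter were low in most E14 libraries. Fabp7 was listed at 0, 0 and 0.327 FPKM in WT on day 0 and at 47.4, 0.626 and 7.49 on day 4, and at 0 in all 3 Fyn KO libraries of day 0 and at 0.764, 0.714 and 0.765 on day 4. It was thus above 1 FPKM in 2 libraries, both WT of day 4. Without the filter the WT difference between days was 2.99 ± 0.96 (adjusted p = 0.0837) and that between genotypes on day 4 was -2.32 ± 0.96 (adjusted p = 0.509), and the genotypes overlapped. Gpm6a was at 2.18, 0.0496 and 1.06 FPKM in WT on day 4 and at 0.596, 0.140 and 0.784 in Fyn KO, and it was listed at 0 in 5 of the 6 day 0 libraries. Ptprz1 was at 1.38, 0.384 and 0.599 in WT on day 4 and at 0.261, 0.384 and 0.539 in Fyn KO. In Fyn KO, Gpm6a and Ptprz1 on day 4 lay above day 0 without overlap, and neither passed the test between days without the filter (adjusted p from 0.145 to 0.420 over both genotypes).

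No member differed between Fyn KO and WT at an adjusted p under 0.05, on day 4, on day 0 or in its change between the days. On day 4, 0.00816% of all genes were called higher and 0.0653% lower, 9 in all, with 1483 at an unadjusted p under 0.05. On day 0, 0.0408% were called higher and 0.131% lower, with 1785 at an unadjusted p under 0.05. For the change between days 0 genes were called either way, with 537 at an unadjusted p under 0.05. The day 4 differences of the 6 members tested were 0.18 ± 0.58 for Nes, 0.29 ± 0.32 for Slc1a3, 0.29 ± 0.32 for Prom1, -0.32 ± 0.37 for Msi1, -0.17 ± 0.15 for Msi2 and 0.046 ± 0.12 for Dbi. The groups overlapped on day 4 for all 10 genes, beside 6.54% higher and 9.99% lower without overlap among genes that passed the filter, and 3.66% and 4.10% among those that did not. The sign for Msi1 rested on WT replicate 1, without which it was 0.13 ± 0.31. A test that is not passed does not show that the genotypes were alike. The comparisons between days and between genotypes share their libraries. With the replicate number as a block, by which the day 4 residuals of WT and Fyn KO were paired, 2 genes were called higher and 8 lower on day 4, none of them a member.

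The other gene lists in E14 WT moved as follows between the days. Of 22 other progenitor genes, 15 were tested, with 7 higher and 2 lower, and a median log2 difference of 1.00 beside 0.078 over all genes. Pax6 rose by 3.12 ± 0.55, Sox3 rose by 3.06 ± 0.62, and Mfge8 was lower by -2.10 ± 0.42. Of 14 partners, 11 were tested, with 4 higher and 1 lower. Ptn rose by 3.31 ± 0.86, Mdk rose by 1.79 ± 0.36, and Cdkn1a, a cell cycle inhibitor, was lower by -1.997 ± 0.36. Of 16 paralogs, 11 were tested, with 2 higher and 2 lower. Ina, the neuronal filament internexin, rose by 2.11 ± 0.65, Fabp5 rose by 1.65 ± 0.42, and the glutamate transporter gene Slc1a1 was lower by -2.10 ± 0.63, opposite to Slc1a3. In Fyn KO the progenitor list had 2 higher and 3 lower, the partners 1 and 1, and the paralogs 2 and 1. No gene of these lists was called between the genotypes on either day. Of 10 neuronal markers 6 were tested and 4 rose in WT, among them Gap43 by 2.85 ± 0.49 and Map2 by 1.63 ± 0.32; of 10 pluripotency markers 8 were lower, with Tbx3, Klf4 and Esrrb at -3.82 ± 0.40, -3.78 ± 0.46 and -2.49 ± 0.49. Mesoderm and endoderm markers, 6 tested, had 1 higher and 1 lower, and astrocyte markers, 2 tested, had 0 called. Of 3 fibroblast markers tested, 1 was higher and 1 lower in WT, and 1 was higher in Fyn KO. In Fyn KO the neuronal markers had 2 higher and 1 lower, which was Stmn2 (named after its value was seen, -2.39 ± 0.47, adjusted p = 0.00574), the pluripotency markers 6 lower, and the mesoderm, endoderm and astrocyte markers 0 called. The differences between the genotypes in these counts were not tested as counts.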

How the data were processed

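RNA of whole populations and of hand-picked single cells was sequenced by the authors. Per the labels, population reads were aligned with TopHat2 2.0.8b and quantified with Cufflinks 2.1.1, on mm9 for R1 and on mm10 for E14 libraries; the methods of the study state other versions and only mm9. The deposited adherent and E14 values are FPKM. The deposited SFEB values are FPKM after ComBat; 1256 values below 0 were set to 0 before the log. The single-cell values were deposited on a log10 scale, as log10(RPKM + 1) after quantile normalization by the authors. No counts were used, so depth is unknown. No 2 columns of a table were duplicates.

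Tests were run in R 4.3.3 with limma 3.58.1 (empirical Bayes with a trend) on log2(FPKM + 1), which understates the change of low genes. The fits were also run on simulated data with independent normal noise, which does not show how they perform on these libraries. Genes needed at least 1 FPKM in at least 3 E14, 8 SFEB or 5 adherent libraries. All 12 E14 libraries entered 1 fit, the SFEB slope had series as a term, and p-values were adjusted by Benjamini-Hochberg over all genes tested. Tables were joined and figures drawn with Python 3.11.15, numpy 2.4.6, pandas 2.3.3 and matplotlib 3.10.9. Groups were taken from the labels. The members and all gene lists were chosen with earlier results of these data known. Genes named were the 10 members, Fyn, the nearest gene to each member, and up to 3 called genes of each list with the largest WT change.

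Residuals of equally numbered libraries correlated at 0.199, 0.220 and 0.224 between WT days and at 0.136, 0.258 and 0.240 between genotypes on day 4, which paired them by the data and not by the labels. They correlated at 0.0239, 0.0899 and 0.00112 between Fyn KO days and at 0.0628, 0.339 and -0.115 between genotypes on day 0, which did not. Alternatives changed the pseudocount, filter, scaling, block, time scale, averaging or libraries.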

Additional observations from a re-analysis of the deposited data

Results flagged for a closer look

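In 22 of the 54 sets of 8 cells of one time point with any spread, 1 cell stood apart from the other 7, by a gap of more than 0.526 of the whole range (Dixon's 95% critical value for 8). The usual rate of about 1 in 20 by chance holds for normally distributed values and cannot be set against this count: in 5 of the 22 sets 7 cells were at 0, so that any value above 0 stood apart. Groups of 3 libraries were not examined in this way. All values are log10(RPKM + 1).

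Dbi was lowest in cell 1 of 106 h, at 0.666, where the next cell was at 1.402, and in cell 2 of 144 h, at 0, where the next was at 1.48. Fabp7 was highest in cell 6 of 0 h (0.374), cell 13 of 9 h (0.799) and cell 6 of 38 h (0.0178). Nes was highest in cell 13 of 38 h (0.867) and cell 6 of 84 h (1.53). Prom1 was highest in cell 1 of 0 h (0.717), cell 9 of 106 h (0.760) and cell 17 of 144 h (2.23). Slc1a3 was highest in cell 2 of 9 h (0.0541), cell 6 of 38 h (0.0592), cell 2 of 84 h (0.330), cell 8 of 106 h (0.524) and cell 8 of 144 h (1.05). Msi2 was highest in cell 2 of 0 h (1.49). Msi1 was highest in cell 6 of 0 h (0.000573), cell 13 of 9 h (0.0532), cell 6 of 38 h (0.00401), cell 2 of 60 h (0.0472), cell 4 of 144 h (0.463) and cell 7 of 216 h (1.56). The 22 values came from 18 cells, 3 of which stood apart for more than 1 gene: cell 6 of 0 h, cell 13 of 9 h and cell 6 of 38 h. Values such as 0.000573 lie far below that of 1 RPKM.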

How the results depend on the processing

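Of 278 values of the members under other settings that left out no single E14 library, 271 kept direction and call, 5 lost the call, 1 gained it and 1 changed direction. With no filter, Msi1 lost the WT call between days (adjusted p = 0.0992). Fyn, not counted among these, also lost it (0.0577), and on day 0 Fyn was called with a pseudocount of 0.1 (adjusted p = 0.0486) and with the replicate block (0.0436). Dbi in the change between genotypes was -0.0474 with quantile normalization. The causes were not tested. Where a group was left with 1 or 2 libraries, the spread of all groups was pooled.

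Between genotypes on day 4, genes called higher numbered 0 with a pseudocount of 0.1, 11 without a filter, 2 with quantile normalization and 2 with the replicate block, and genes called lower 35 without a filter and 15 with quantile normalization. On day 0, 8 higher and 34 lower were called without a filter and 31 lower with the block. For the change between days, 2 higher and 2 lower were called without a filter and 1 and 1 with the block. The block gave 2140 higher and 1423 lower in WT and 1696 and 1083 in Fyn KO, and changed no call of a member. In single cells, 7 genes were called higher and 11 lower when RPKM was averaged first, 38 and 58 on the rank of time, 309 higher without cell 16 of 216 h, and 0 and 0 without 216 h.

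With 1 E14 library left out in turn, calls between days ranged from 1104 to 2124 higher and 726 to 1407 lower in WT, and from 636 to 1859 and 407 to 1205 in Fyn KO. Between genotypes they ranged from 1 to 8 and 4 to 11 on day 4, from 2 to 25 and 5 to 136 on day 0, and from 0 to 4 and 0 to 1 for the change. The WT difference of Nes ranged from -0.24 to 0.82. Day 4 differences between genotypes ranged from -0.19 to 0.72 for Nes, -0.0375 to 0.56 for Prom1, -0.71 to 0.13 for Msi1 and -0.0274 to 0.14 for Dbi. Those of day 0 ranged from -0.06 to 0.14 for Msi1 and -0.08 to 0.08 for Dbi, and those of the change from -0.37 to 0.25 for Slc1a3, -0.73 to 0.11 for Msi1 and -0.042 to 0.13 for Dbi. Prom1 and Slc1a3 kept their calls between days in both genotypes in all 12 such fits, and Msi2 its WT call. The call of Msi1 in Fyn KO was gained without WT day 4 replicate 1 (adjusted p = 0.0473).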
